A study of Nannochloropsis oceanica with 6 samples.

Results

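Ammonium transporters are the membrane proteins through which cells take up ammonium, and 3 genes of the marine oil-producing microalga Nannochloropsis oceanica IMET1 carried that description, NO09G03110, NO20G02430 and NO30G00980, out of 10569 genes in the files. They were chosen by gene identifier with their levels in these libraries already known, and a search of gene names, ontology terms and orthologous group classes for ammonium transport returned these 3 genes and no other. A protein description was present for 5985 of the 10569 genes, so a carrier without annotation would have been missed. Transcripts were measured by sequencing of poly-A selected RNA in 6 libraries, 2 each of C0, N1 and N2. The C0 libraries came from wild-type cells in nitrate medium (1 g per L of NaNO3) at 25 °C under light of 80 µmol photons per m2 and s. The N1 and N2 libraries came from another part of the collected cells after washing in nitrogen-free medium and 1 or 2 days in it at 25 °C and 50 µmol photons. Nitrogen supply, light, washing and time in culture thus all differ between C0 and the later groups and cannot be told apart, whereas N1 and N2 differ by design in time only. The study lists more reads and a lower share of high-quality bases for the N2 than for the N1 libraries. Such differences between libraries cannot be told apart from time.

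Ammonium transporters belong to a protein family of bacteria, fungi, plants and animals, in which AMT-type proteins carry ammonium across the plasma membrane or the plastid envelope. In plants and green algae a cell usually has several AMT genes, and some of them are known to be raised when nitrogen is scarce. Rh-type members form another branch of the family, best known as ammonia channels of gill and kidney cells in fish and mammals, and the Rh protein of the green alga Chlamydomonas has been linked to carbon dioxide. Once inside the cell, ammonium is fixed by glutamine synthetase and glutamate synthase, which also take in the ammonium made from nitrate by nitrate and nitrite reductase.

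The closest described proteins divided the genes into a pair and a single gene. NO09G03110, on chromosome 9 by its identifier, had 1 transcript of 1464 bases and was described as an ammonium transporter after the nrgA protein of Bacillus subtilis, a bacterial AMT-type carrier. NO20G02430, on chromosome 20, carried the same description and the same orthologous group (ammonia permease), but 4 transcripts were assigned to it. NO30G00980, on chromosome 30, had 1 transcript of 1479 bases and was described as an Rh type B transporter after a zebrafish protein. The mean transcript length of NO20G02430, weighted by transcript abundance, was 2201 and 2232 bases in C0 against 2248 and 2217 in N1 and 2159 and 2233 in N2. These ranges overlapped between all groups, so the lengths showed no separation of the groups in which transcripts of this gene were used. The estimated counts of all 3 genes were whole numbers in every library, to a tolerance of 0.005, which leaves no sign of reads divided between them and other genes.

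The libraries held between 4875888 and 6523021 estimated counts. The chi-square per gene between replicates, near 1 for pure counting error, was 1.77 for C0, 2.06 for N1 and 3.39 for N2. The libraries of a group are described by the study as biological replicates, but neither its text nor the labels say whether they came from separate cultures, so the SD and p-values measure the spread between these libraries. Levels are given in CPM, the count scaled to the size of the library with a correction for its composition (TMM), for comparisons between libraries. They are given in FPKM, which is scaled by transcript length as well, for comparisons between genes. The libraries were prepared without strand information, so genes that overlap, antisense genes included, may hold each other's reads. Since RNA was not related to cell number, more transcript per cell and less of the other RNA cannot be told apart either.

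NO09G03110 was the most abundant ammonium transporter in every library. Its estimated counts were 2188 and 2268 in C0, then 67726 and 61520 in N1 and 37937 and 39736 in N2. In CPM this was 434 in each C0 library, 13424 and 13112 in N1, and 5603 and 6072 in N2. The C0 libraries were the lowest and the N1 libraries the highest, with N2 in between and no overlap between groups. It took up 0.0435% of the counts of C0 replicate 1 (95% Wilson interval 0.0417 to 0.0453) and 1.30% of those of N1 replicate 1 (1.29 to 1.31), intervals that cover counting error only. By FPKM it stood at rank 253 and 252 of all genes in C0, at rank 1 in both N1 libraries, and at rank 2 in both N2 libraries. By count, too, it was the highest gene of both N1 libraries, and it was the third in both N2 libraries. A single carrier for ammonium was thus the most abundant transcript measured on the first day without nitrogen.

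**Figure D1:**
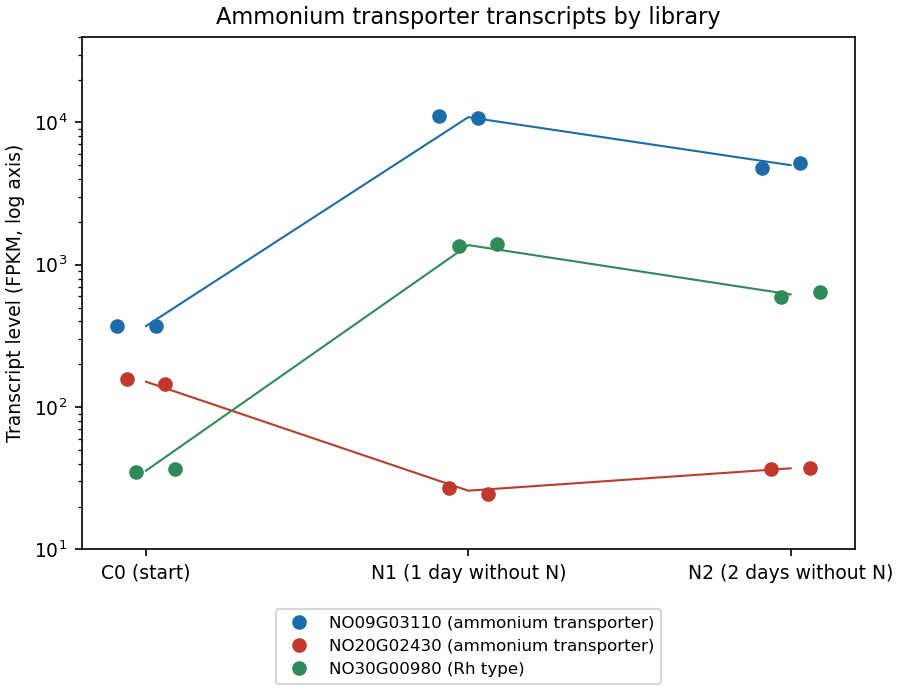
FPKM (log axis) of the 3 ammonium transporter genes in the 6 libraries, 1 point per library, with lines through the group means of n = 2. NO09G03110 and NO30G00980 lie highest in N1 and lowest in C0, whereas NO20G02430 lies highest in C0 (145 and 156 FPKM) and lowest in N1 (24.5 and 27.2 FPKM).

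NO30G00980, the Rh-type gene, followed the same course from a lower start. Its estimated counts were 208 and 227 in C0 against 8417 and 8084 in N1 and 4742 and 4973 in N2. In CPM it measured 41.3 and 43.5 in C0, then 1668 and 1723 in N1 and 700.4 and 759.9 in N2. The groups again stood in the order C0, N2, N1 without overlap. Its rank by FPKM went from 4519 and 4311 in C0, near the middle of all genes, to 20 and 18 in N1 and to 104 and 93 in N2.

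NO20G02430 took the opposite course. Its estimated counts were 1504 and 1465 in C0 against 278 and 230 in N1 and 457 and 469 in N2. In CPM it measured 298 and 280.5 in C0, then 55.1 and 49.0 in N1 and 67.5 and 71.7 in N2. Both C0 libraries were far above all others, N1 was lowest, and the N1 and N2 libraries did not overlap but lay close together. By FPKM its rank was 734 and 811 in C0 against 5257 and 5650 in N1 and 4298 and 4228 in N2. The AMT-type pair, which shared description and orthologous group, was thus lowest and highest in opposite groups, while the AMT-type NO09G03110 and the Rh-type NO30G00980 shared an order of groups.

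The order of the 3 genes by level per length changed between C0 and the other groups. In C0 it was NO09G03110 with 371 ± 1.01 FPKM (SD, n = 2), NO20G02430 with 151 ± 7.93 FPKM and NO30G00980 with 35.7 ± 1.39 FPKM. In N1 NO09G03110 had 10889 ± 172 FPKM, NO30G00980 1374 ± 32.3 FPKM and NO20G02430 25.8 ± 1.88 FPKM. In N2 the values were 5010 ± 295, 619 ± 36.9 and 37.1 ± 0.495 FPKM in the same order as in N1. Neighbours in each order differed by many times the SD of either gene. The Rh-type gene and NO20G02430 thus changed places, from a ratio of NO20G02430 to NO30G00980 in FPKM of 4.50 and 3.95 in the C0 libraries to a ratio of NO30G00980 to NO20G02430 of 49.7 and 57.0 in N1 and of 16.1 and 17.2 in N2.

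Summed over the 3 genes, ammonium transporter transcripts measured 561 and 553 FPKM in C0, then 12389 and 12188 FPKM in N1 and 5430.5 and 5901 FPKM in N2. The sum was 22.1-fold higher in N1 and 10.2-fold higher in N2 than in C0. NO09G03110 made up 66.5% ± 0.842 (SD, n = 2) of the C0 sum, 88.6% ± 0.379 of that of N1 and 88.4% ± 0.0192 of that of N2. NO20G02430 made up 27.0% ± 1.16 in C0, but only 0.210% ± 0.0129 in N1 and 0.656% ± 0.0298 in N2. NO30G00980 made up 6.41% ± 0.314 in C0, 11.2% ± 0.392 in N1 and 10.9% ± 0.0105 in N2. The shares of NO09G03110 and NO30G00980 were close in N1 and N2 although the sum was 2.17-fold higher in N1. The ratio of NO09G03110 to NO30G00980 in FPKM was 10.7 and 10.1 in C0 against 8.15 and 7.71 in N1 and 8.10 and 8.09 in N2. It was thus higher in both C0 libraries than in any other library, and the N2 values fell within the range of N1.

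**Figure D2:**
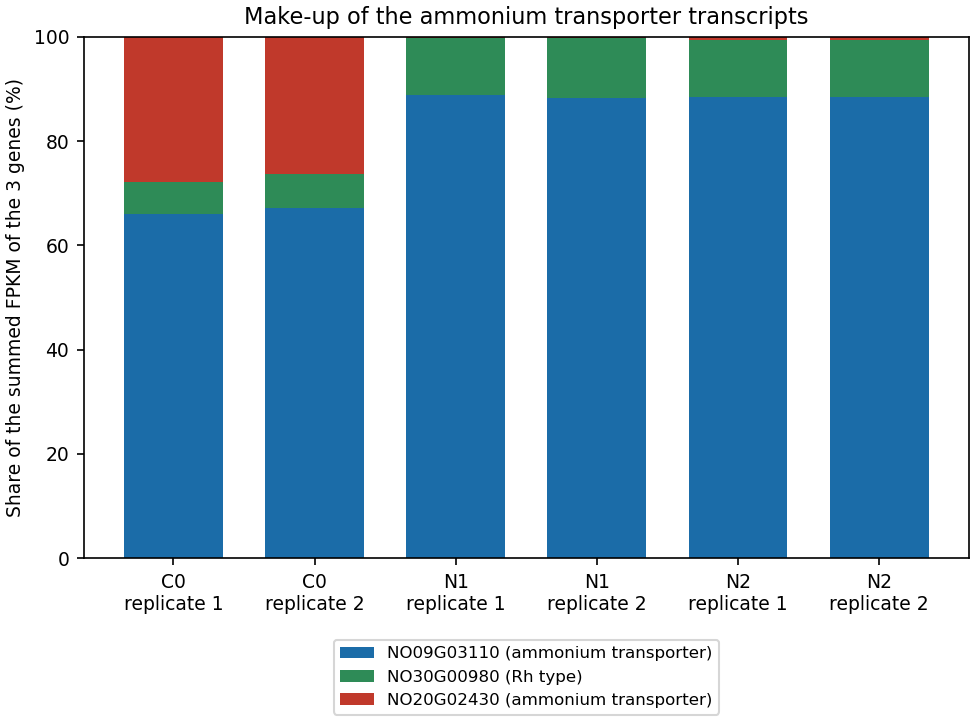
Share of each gene, in percent, in the summed FPKM of the 3 ammonium transporter genes, 1 stacked bar per library. NO20G02430 takes 26.2% and 27.9% in the C0 libraries and less than 1% in every N1 and N2 library.

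Fitted fold changes put these differences on 1 scale, as log2 values with an approximate SE from a fit over all 6 libraries. They are given without a test, since the genes were chosen with these values known, and the comparisons with C0 share its libraries. In N1 against C0 NO09G03110 had a log2 fold change of 4.93 ± 0.033, a 30.6-fold difference in mean CPM. NO30G00980 had 5.32 ± 0.060 (40.0-fold), and NO20G02430 had -2.47 ± 0.073, a level 5.56-fold lower. Counted from the highest of 9736 genes tested, NO30G00980 stood at place 53 and NO09G03110 at place 63. NO20G02430 stood at place 222 from the lowest. None of the 3 genes overlapped between N1 and C0, and neither did 84.4% of all genes tested.

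In N2 against C0 the values were 3.75 ± 0.031 for NO09G03110 (13.4-fold), 4.11 ± 0.058 for NO30G00980 (17.2-fold) and -2.06 ± 0.066 for NO20G02430 (4.16-fold lower). The places were 85 and 73 from the highest for the former and 233 from the lowest for NO20G02430. Each gene thus kept its direction on the second day at a smaller distance from C0. As before, no gene of the 3 overlapped between the groups, as was the case for 84.8% of all genes tested.

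Between N1 and N2, at equal light and medium, all 3 genes lay closer to C0 in N2. NO09G03110 had a log2 fold change of -1.18 ± 0.028 in N2 against N1 (2.27-fold lower in CPM) and NO30G00980 had -1.22 ± 0.046 (2.32-fold lower). NO20G02430 had 0.42 ± 0.085, a level 1.34-fold higher in CPM. Its value lay between 0.29 and 0.50 when single libraries were left out. Of 9736 genes tested NO09G03110 and NO30G00980 stood at places 280 and 268 from the lowest. NO20G02430 stood at place 2551 from the highest, among the bulk of genes. The groups of all 3 genes were separate, as were those of 78.2% of all genes tested. The median log2 fold change over all genes was -0.044 in N1 against C0, 0.0089 in N2 against C0 and 0.0046 in N2 against N1.

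**Figure D3:**
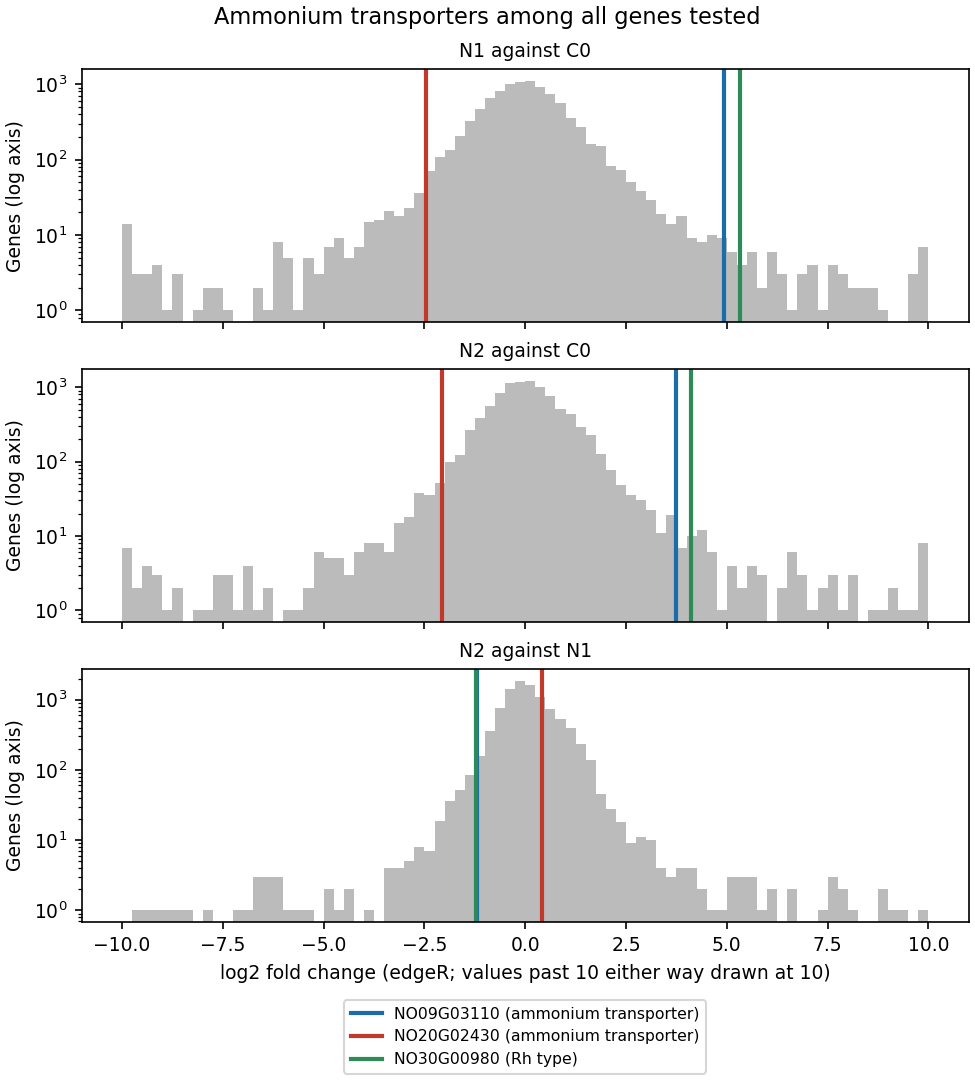
Number of genes (log axis) by log2 fold change for the 9736 genes tested, in 1 panel per comparison, with vertical lines at the 3 ammonium transporters. In both comparisons with C0 NO09G03110 and NO30G00980 lie in the upper tail and NO20G02430 lies toward the lower tail. In N2 against N1 NO09G03110 and NO30G00980 lie toward the lower tail, and NO20G02430 lies on the upper side but among the bulk of genes.

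Ammonium is only 1 form of nitrogen a cell can import, and the carriers of the other forms offered a measure beside the ammonium transporters. NO14G02450, a high affinity nitrate transporter, measured 80.2 and 82.05 FPKM in C0, then 3377 and 3372 in N1 and 5323 and 5314 in N2. The ratio of NO09G03110 to it in FPKM was 4.61 and 4.53 in C0 against 3.26 and 3.19 in N1 and 0.902 and 0.982 in N2. By FPKM the ammonium carrier was thus well above the nitrate carrier in C0 and N1, and slightly below it in both N2 libraries. In mean CPM, which is not scaled by length, the order was the same but the N2 gap was wider. NO09G03110 had 434, 13268 and 5838 CPM in C0, N1 and N2, and NO14G02450 had 203, 7605 and 11309 CPM. NO29G01570, described as the urea-proton symporter DUR3, measured 24.1 and 25.1 FPKM in C0, 566 and 547 in N1, and 222 in each N2 library. The 3 ammonium transporters together stood 22.0 to 23.3 times above it in C0, 21.9 to 22.3 times in N1 and 24.4 to 26.6 times in N2. NO07G03230, described as a cytosolic glutamine synthetase, an enzyme that fixes ammonium, stood at 1.87 and 1.79 times the FPKM of NO09G03110 in C0. In N1 the order was turned, with NO09G03110 at 2.03 and 1.95 times the FPKM of NO07G03230, and in N2 at 1.83 and 1.80 times.

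Other genes of nitrogen uptake and use were taken from searches of the gene descriptions and tested in the fit over all genes (edgeR's quasi-likelihood test, adjusted p below 0.05 over 9736 genes). Of 72 genes found 68 were abundant enough to be tested. In N1 against C0 70.4% of all genes passed the threshold, with 33.3% rising and 37.1% falling, and 34 of the 68 rose and 20 fell, with a median log2 fold change of 0.26. In N2 against C0 69.9% passed, with 35.0% rising and 34.9% falling, and of the 68 genes 34 rose and 18 fell (median 0.17). In N2 against N1 57.9% passed, with 29.4% rising and 28.5% falling, which is 2861 and 2772 genes, or 3444 and 2195 genes after scaling by totals alone. Here 18 of the 68 rose and 29 fell (median -0.13). The course of NO09G03110 and NO30G00980, above C0 on both days and lower on the second, was shown at the threshold in each comparison by 19 of these 68 genes (27.9%), and by 10.6% of all genes tested. Genes with nearby identifiers and the same description were counted separately among the 19. They were NO16G00750, NO16G00760 and NO16G00770 (target of rapamycin), NO08G04040 and NO08G04050 (glutamate synthase), and NO02G06090 and NO02G06110 (urease). Whether these are separate genes was not tested. The course of NO20G02430, below C0 on both days and higher on the second, was shown by 4 (5.88%), and by 9.5% of all genes tested.

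**Figure D4:**
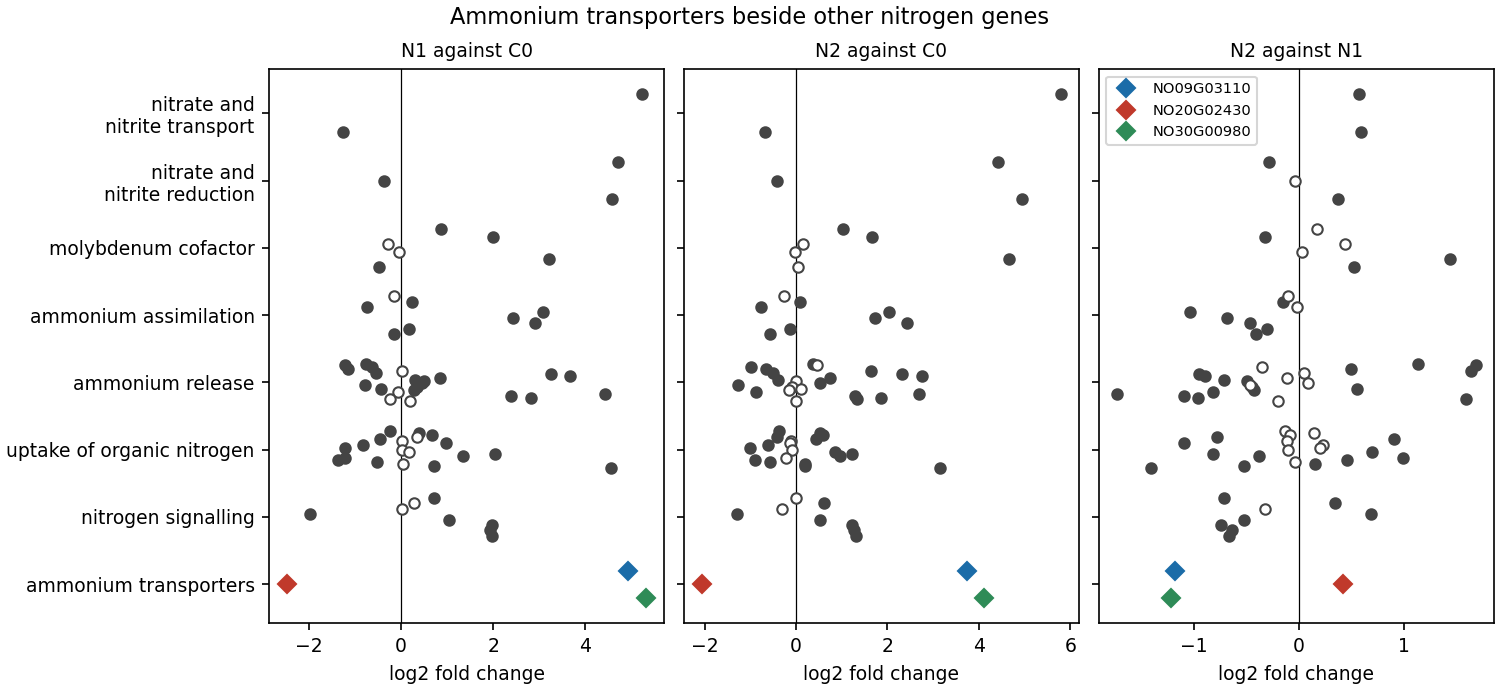
log2 fold change of the 68 tested nitrogen genes by group (circles, filled where edgeR's adjusted p was below 0.05) and of the 3 ammonium transporters (diamonds, not tested), in 1 panel per comparison. In N1 against C0 NO09G03110 and NO30G00980 lie beside NO14G02450 (5.23) and NO29G01570 (4.55), and NO20G02430 lies below every gene of the lists.

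Like the ammonium transporters, the other carriers lay on both sides of C0. Genes in general did so too, with 33.3% of all genes tested rising and 37.1% falling in N1. Of the nitrate transporters NO14G02450 rose in N1 (5.23 ± 0.020) and NO30G01230 fell (-1.26 ± 0.14), and both rose from N1 to N2 (0.57 ± 0.016 and 0.59 ± 0.14). Among 19 carriers of organic nitrogen 7 rose and 7 fell in N1 (73.7% passed, close to the 70.4% of all genes tested). DUR3 (NO29G01570) rose by 4.55 ± 0.048 and an amino acid transporter, ANTL3 (NO17G01160), fell (-1.36 ± 0.17). The amino acid transporter NO21G01080, whose mean CPM over all 6 libraries was the highest of that list after DUR3, did not pass (0.049 ± 0.054). In N2 the largest fall against C0 was that of the permease NO09G01730 (-1.01 ± 0.075), and, of the genes averaging 10 CPM or more, the largest rise against N1 was that of the amino acid transporter NO06G04420 (0.90 ± 0.11).

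Among the enzymes that make or fix ammonium, the nitrate reductase NO14G02460 rose by 4.71 ± 0.047 in N1 and nitrite reductase NO26G00710 by 4.58 ± 0.031, while the nitrate reductase NO25G00630 fell (-0.38 ± 0.061). Of 8 genes of ammonium assimilation 5 rose and 2 fell in N1 (87.5% passed, beside 70.4% of all genes tested). Glutamine synthetase NO07G03230 stood at 3.07 ± 0.040, glutamate synthase NO08G04050 at 2.90 ± 0.039 and the asparagine synthetase-like NO06G00950 at -0.74 ± 0.067. From N1 to N2 none of these 8 rose and 6 fell (75.0% passed, beside 57.9% of all genes tested). Among them was NO07G03230 (-1.04 ± 0.037), whose fall was of a size with the values of NO09G03110 and NO30G00980. Of 22 genes in a list for the release of ammonium from organic nitrogen 11 rose and 7 fell in N1 (81.8% passed, beside 70.4% of all genes tested). They included the amine oxidase NO15G02530 (4.42 ± 0.062), the NADP-specific glutamate dehydrogenase NO16G00690 (2.39 ± 0.041) and the amine oxidase NO06G00030 (0.36 ± 0.046). Lower in N1 was NO01G02920, described as an amidase and also as a syntaxin (-1.15 ± 0.11). Urease NO02G06110 had the largest rise of that list in N2 against C0 (2.77 ± 0.058) and the nitrilase-like NO05G03700 its largest fall (-1.26 ± 0.25), and the NAD-specific glutamate dehydrogenase NO01G02980 rose from N1 to N2 (1.63 ± 0.074). Not every gene of that list frees ammonium, since NADP-specific glutamate dehydrogenases are known for fixing ammonium into glutamate, and urease accessory proteins only help to assemble urease.

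In the list of the molybdenum cofactor, which nitrate reductase carries, 3 of 6 genes rose and 1 fell in N1 (66.7% passed, beside 70.4% of all genes tested). The biosynthesis gene NO24G02300 rose by 3.22 ± 0.045 and NO25G01080, a cofactor sulfurase, fell (-0.48 ± 0.064). NO04G03660, with the description of NO24G02300, had the list's largest fall from N1 to N2 (-0.32 ± 0.059). Of 8 genes of nitrogen signalling 5 rose and 1 fell in N1 (75.0% passed, beside 70.4% of all genes tested). Among them were NO16G00750, NO16G00760 and NO16G00770, with nearby identifiers and the same description, target of rapamycin (1.96 ± 0.060, 1.92 ± 0.083 and 1.97 ± 0.089). These were counted separately, and may not be independent. The others included NO02G01270, a TOR-associated regulator (0.72 ± 0.073), and a TOR kinase, NO08G04260, which fell (-1.98 ± 0.13). Estimated counts were not whole numbers in every library for NO14G02450, NO06G04420, NO06G00950, NO06G00030, NO01G02920, NO02G06110 and NO05G03700, which may share reads with other genes. This was not examined for NO16G00760, NO08G04040 and NO02G06090.

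The genes whose course was most like that of each ammonium transporter were found by the distance between log2 CPM profiles over the 6 libraries, each centred on its own mean, among 8426 genes with a mean of at least 10 CPM. Many genes share such a course in 3 groups, and the values are a description. For NO09G03110 the 5 nearest genes included NO30G00980 in the third place (distance 0.43), and for NO30G00980 they included NO09G03110, also in the third. NO30G00930, described as a myosin light chain kinase, was first for both, at a distance of 0.40 from NO09G03110 and 0.19 from NO30G00980. It measured 33.9 and 37.5 CPM in C0, 1309 in each N1 library and 623 and 620.4 in N2, close to the Rh-type gene on the same chromosome, 5 identifiers away. NO03G03620, described by transcript as an amidophosphoribosyltransferase of purine synthesis or a glucosylceramidase, was in the lists of both (0.49 and 0.64). The estimated counts of NO03G03620 and, among the genes named next, of NO12G00390, NO09G03100 and NO04G02810 were fractional in every library, so that reads may be shared with other genes.

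The remaining genes nearest to NO30G00980 were carriers of ions. NO03G02820, a sodium/hydrogen exchanger, lay at a distance of 0.39 with 69.9 ± 4.56 CPM (SD, n = 2) for C0, 3191 ± 25.5 for N1 and 1556 ± 23.4 for N2. NO12G00390, a proton ATPase, lay at 0.58 with 59.7 ± 1.11, 3394 ± 50.4 and 1431 ± 14.9 CPM. Both stood highest in N1 and lowest in C0, as did the Rh-type gene. For NO09G03110 the others were NO09G03100, a choline dehydrogenase (0.41), and NO18G00390, which had no description (0.54).

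For NO20G02430 the distances are not on a par with those of the other ammonium transporters, since profiles were not scaled and its own range was smaller. NO01G03620, a mannosyltransferase, and NO11G01800, a sulfate transporter, lay at a distance of 0.19 each. NO17G01180, with an OTU domain, lay at 0.21, and NO04G02810, with an SPX domain, a domain of proteins that handle or sense phosphate, at 0.28, as did NO05G03770, which had no description. The sulfate transporter NO11G01800 measured 569 ± 8.16 CPM (SD, n = 2) for C0, 111 ± 7.54 for N1 and 132 ± 1.49 for N2, nearly in step with the 289 ± 12.7, 52.1 ± 4.30 and 69.6 ± 2.95 CPM of NO20G02430. A carrier of another nutrient thus shared its course. Of its 5 neighbours 3 stayed among the nearest when FPKM was used, against 4 of 5 for NO09G03110 and 5 of 5 for NO30G00980.

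**Figure D5:**
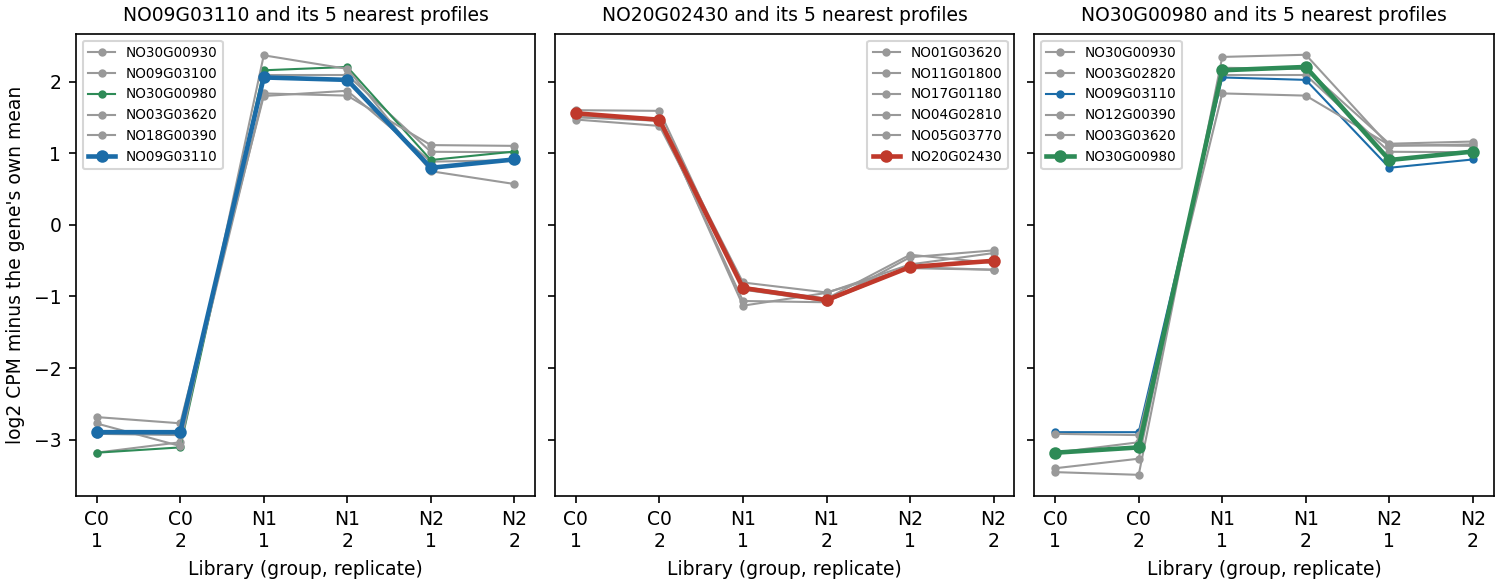
log2 CPM minus each gene's own mean in the 6 libraries, for each ammonium transporter (thick line) and the 5 genes with the most similar profile (thin lines), which join libraries only to guide the eye. The NO09G03110 and NO30G00980 panels show the same course, lowest in C0 and highest in N1, and the NO20G02430 panel shows its inverse.

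Genes with neighbouring identifiers were looked at because reads of overlapping genes cannot be separated here. This window of 3 identifiers on each side was chosen after the values of the ammonium transporters were seen, and whether the genes overlap was not tested, since positions were not used. Next to NO09G03110, NO09G03100 rose from 25.0 and 23.5 CPM in C0 to 558 and 587 CPM in N1 and stood at 296 and 300.3 CPM in N2 (4.56 ± 0.068 in N1 against C0). On its other side the ribosomal protein gene NO09G03120 fell in N1 (-1.60 ± 0.042). NO09G03090, with the same description as NO09G03100, did not pass (0.039 ± 0.055), and the estimated counts of NO09G03090 and NO09G03100 were fractional in every library. Next to NO20G02430, which was lower in N1, NO20G02440 rose by 6.82 ± 0.20 in N1, from 0.681 to 79.4 CPM, and NO20G02420 did not pass (-0.44). The C0 libraries of NO20G02440, at 0.595 and 0.766 CPM, lay below the 1 CPM of the filter, so the size of its rise is poorly known. Next to NO30G00980, NO30G00970 rose in N1 by 0.31 and NO30G00990 did not pass (-0.053). Of the genes directly beside the ammonium transporters, NO09G03100 had the same direction and a like size of difference in N1 against C0, and the others did not.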

How the data were processed

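The members and gene lists were chosen with earlier results of these data known. The study's methods and the submitters' notes name Trim Galore for trimming, STAR for alignment to the strain's own genome, Picard for duplicates, and featureCounts and StringTie for quantification, without versions. The authors deposited an estimated count for each gene, in columns laid out as RSEM writes them, a tool that none of these sources names, so that the program behind the counts is not known. Of these counts 78.9% to 80.1% per library were whole to within 0.005. The deposited TPM and FPKM columns were scaled by the authors by effective length and library. The tables of the authors' comparisons hold fold changes and p-values and were not used. The design had assumed whole counts, so counts were rounded.

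The genes that reached 1 CPM in 2 or more libraries (9736, all 3 ammonium transporters among them) were tested with edgeR 4.0.16 (TMM, quasi-likelihood, 1 fit over all 6 libraries, group as the only term) in R 4.3.3, with Benjamini-Hochberg adjustment at 0.05. The approximate SE is the absolute log2 fold change over the square root of F. Profiles used log2 CPM with a prior count of 2. Scripts were tested on simulated data. Searches in the protein descriptions gave the lists, whose terms were corrected for false matches in names. Named were, per list and comparison, the called genes with the largest rise and fall among those with a mean of at least 10 CPM, and the 2 most abundant genes, and the text gives the genes added by the later comparisons once. NO16G00760, NO08G04040 and NO02G06090 were named besides, for sharing a description with a nearby gene. Groups came from titles, since N2 replicate 2 has no treatment label. Alternatives were other scalings, no filter, DESeq2 1.42.0, limma 3.58.1 on FPKM (pseudocounts 1 and 0.1), a replicate block and leaving out each library.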

Additional observations from a re-analysis of the deposited data

How the results depend on the processing

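The direction of each ammonium transporter held in every comparison under all alternatives run. For NO09G03110 the log2 fold change in N1 against C0 was 4.97 with DESeq2 size factors, 4.88 with library totals only, 4.97 with the DESeq2 test, 4.87 with limma on log2(FPKM + 1) and 4.88 on log2(FPKM + 0.1), and 4.92 to 4.99 when single libraries were left out. For NO30G00980 it was 5.23 on log2(FPKM + 1). In N2 against N1 library totals alone gave -1.09 for NO09G03110 and -1.12 for NO30G00980. The shares of the 3 genes are the same in TPM by construction, since TPM and FPKM differ by 1 factor per library. Counts of nitrogen genes called stayed within 1.5 times. The call of NO21G01080 in N2 against N1 (0.15) was lost with DESeq2 size factors and the DESeq2 test (0.12 each) and without N1 replicate 2 or N2 replicate 1 (0.095 and 0.12), and NO06G00030 in N2 against C0 (-0.09, not called) was called without N2 replicate 2 (-0.18, adjusted p = 0.0014 by edgeR). Values of genes that had not passed changed sign for NO21G01080 in N1 against C0 (-0.0049 with library totals only, -0.0068 and -0.0069 on FPKM with a pseudocount of 1 and 0.1), for NO25G01080 in N2 against C0 (-0.040 to 0.11 when single libraries were left out) and for NO02G01270 in N2 against C0 (-0.00069 with the DESeq2 test, -0.081 to 0.081 when single libraries were left out). The cause was not tested.

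Same-numbered libraries did not deviate together (correlations from -0.046 to 0.013 over genes). These correlations cannot tell whether same-numbered libraries shared a culture or handling. With a replicate block 3197 genes rose and 3548 fell in N1 against C0, beside 3240 and 3611 without it, and 34 and 20 nitrogen genes rose and fell, as without it. With 2 libraries a group, spread between cultures is poorly known, and the counts of NO30G00980 in C0 and NO20G02430 in N1, between 208 and 278, limit their precision more than any other count of these genes.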
